A study of Mus musculus with 90 samples.

Results

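Lyrm7 and its relatives carrying the LYR motif were followed in single mouse oocytes and embryos. The members were chosen by name: the rows of the count table whose gene symbol was Lyrm1, Lyrm2, Lyrm4, Lyrm5, Lyrm7, Lyrm9, Sdhaf1 or Fmc1. The table held 7 of these 8 symbols among 24422 genes, and all 7 were among the 16511 genes tested. No row carried the symbol Fmc1, so that member was left out. Its gene is listed in RefSeq with the older symbol 1110001J03Rik, and the row under that symbol was read as a relative, beside Ndufa6, Ndufb9 and Sdhaf3. RefSeq names Lyrm5 as Etfrf1. Lyrm7 itself was picked because it differed between the genotypes at the 2-cell (2c) stage, so every value of Lyrm7 that involves a 2c group is a description without a test.

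The study asked what the loss of maternal Plag1, which encodes a zinc finger transcription factor, changes in oocytes and early embryos. All mice were of the CD-1 strain. WT MII oocytes came from WT females and WT embryos from WT parents, whereas matPlag1KO oocytes came from Plag1 knockout females and matPlag1KO embryos from such females mated with WT males, so that the embryos were heterozygous and carried a WT paternal allele. Females of both genotypes were sexually mature and superovulated, and the label times were 21 to 23 h for MII oocytes, 45 to 47 h for 2c embryos and, read from a label that runs the hours together, 71 to 73 h for 8-cell (8c) embryos. Of 90 libraries, 78 were kept: 16 WT and 14 matPlag1KO oocytes, 11 and 11 2c embryos, and 15 and 11 8c embryos, spread over 2 multiplexed pools, libA and libB in the labels. The position codes in the labels, such as A1, are called wells here. Embryos were picked on several occasions, which the labels do not tie to samples. The labels do not name donor females, so p-values measure the spread between single cells or embryos, some of which may share a mother. Fewer cells and less RNA per cell cannot be told apart in whole embryos.

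LYR proteins are small and mostly sit in the mitochondrial matrix. Their name comes from a leucine-tyrosine-arginine run near the start of the protein, and many of them dock onto the mitochondrial acyl carrier protein (gene Ndufab1) while they help to mature or assemble an enzyme complex. LYRM7 holds the Rieske iron-sulfur protein UQCRFS1 until BCS1L places it in complex III. LYRM4, also called ISD11, stabilises the cysteine desulfurase NFS1, which supplies sulfur for iron-sulfur clusters. SDHAF1 helps the iron-sulfur subunit SDHB of complex II to mature, LYRM5 acts on the electron transfer flavoprotein ETFA-ETFB, and LYRM2 has been tied to complex I. NDUFA6 and NDUFB9 are LYR subunits of complex I itself. The oocyte hands its mitochondria and much of its RNA to the embryo, and in the mouse the embryonic genome becomes active in the 2c embryo.

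The coding runs that give the family its name are shown to make plain how Lyrm7 departs from most of its relatives. Each line holds up to 12 coding bases before the run, the run itself in capitals and the next 9 bases, read 5′ to 3′ from GENCODE transcript models on mm9, the genome build of the counts.
Lyrm7: aaggttttacagCTCTTTAAAacactgcac
Lyrm1: gaagtcctctgcCTCTACCGAagcattttc
Lyrm2: caagttctcctcCTCTACAGAaagattttg
Lyrm4: caagttttagatCTGTACCGGgcgatgatg
Lyrm5: gaagtactgactCTTTATAAAaatctgctg
Sdhaf1: caagttctgagcCTGTACCGCgagctgctg
Ndufa6: agggtgcgcgagCTCTACCGCgcttggtat
Ndufb9: aaggtgctgcggCTGTATAAGcgcgcgctg
Lyrm1, Lyrm2, Lyrm4, Sdhaf1 and Ndufa6 encode leucine-tyrosine-arginine in the capitals. Lyrm5 and Ndufb9 encode leucine-tyrosine-lysine, and Lyrm7 encodes leucine-phenylalanine-lysine, beginning at codon 10 of the 104 codons of its model. The Lyrm7 run lies on the minus strand in exon 2 of 5, at chr11:54666784-54666792, within a gene annotated at chr11:54652791-54674093. The run begins at codon 12 in Lyrm1, Lyrm4 and Lyrm5, at codon 14 in Sdhaf1 and at codon 25 in Lyrm2. Sdhaf1 holds 2 such runs, of which the first is shown. Lyrm9 is not shown because it has no protein-coding transcript in these models. In the 113 codons of 1110001J03Rik no leucine was followed by tyrosine or phenylalanine and then by arginine or lysine. In the RefSeq promoter windows of GRCm38.p6, which run from 250 bases before to 50 after a start site, the PLAG1 consensus matched on either strand in 19.2% of 32851 windows. It matched in 1 of 3 windows of Lyrm1 and in none of the windows of Lyrm7, Lyrm2, Lyrm4, Lyrm5, Lyrm9 and Sdhaf1. Most windows of all genes held no match, so a gene without one does not stand out. The paper scanned wider promoter windows for a longer de novo motif, which was not searched here.

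Lyrm7 was present in most oocytes, in every 2c embryo labelled matPlag1KO, and at a trace level elsewhere. In the 16 WT oocytes its level ran from 0 to 60.1 CPM (counts scaled to a common library total, after TMM), with a median of 26.3 and a mean of 25.6 ± 18.9 (SD). In the 14 matPlag1KO oocytes it ran from 19.5 to 111, with a median of 38.6 and a mean of 45.1 ± 24.6. Both oocyte groups overlapped.
In the 11 WT 2c embryos a single Lyrm7 molecule was counted in 1 library and none in the other 10 libraries, out of 1659010 gene counts. In the 11 2c embryos labelled matPlag1KO, the counts ran from 4 to 42 and the level from 23.1 to 148 CPM, with a median of 37.0 and a mean of 66.5 ± 45.1 (SD). The 2c groups did not overlap, which is what the gene was picked for. Pooled over each group, the level was 157 times higher in the matPlag1KO libraries. That ratio rests on a single WT molecule, so its size is poorly fixed. It is a description without a test, because the gene was picked for this difference. Pooling also hides the spread between the embryos.
At 8c, 7 of 15 WT embryos held a count, with 10 counts in all, and 6 of 11 matPlag1KO embryos, with 9 counts in all. The levels ran from 0 to 9.05 CPM in WT and from 0 to 11.7 in matPlag1KO. No 8c embryo of either genotype reached the lowest level of the matPlag1KO 2c group.

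**Figure D1:**
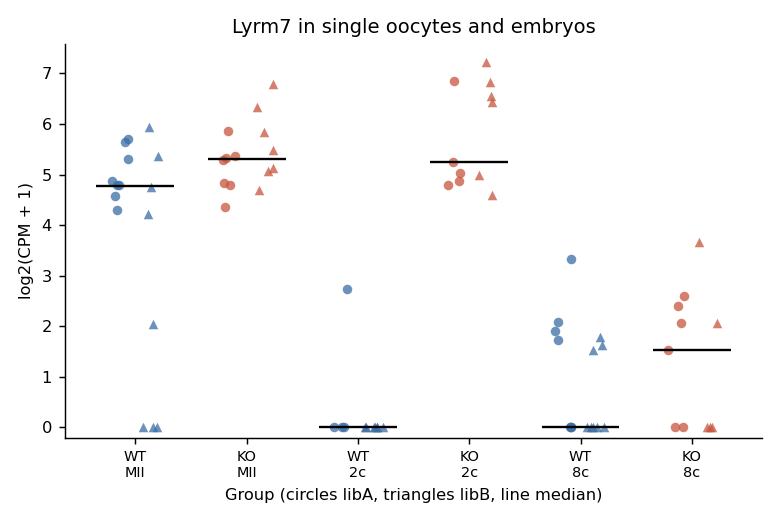
Lyrm7 level of each kept library on a log2(CPM + 1) scale (vertical axis) in the 6 groups (horizontal axis), with circles for libA, triangles for libB and a line at each group's median. The 11 matPlag1KO 2c embryos sit between 23.1 and 148 CPM, as high as the oocytes, while 10 of the 11 WT 2c embryos sit at 0 and both 8c groups stay under 12 CPM.

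Ordered by median, the 6 groups ran from matPlag1KO oocytes (38.6 CPM) and matPlag1KO 2c embryos (37.0) through WT oocytes (26.3) to matPlag1KO 8c embryos (1.91), with WT 8c and WT 2c embryos both at 0. The first 3 groups overlapped one another, and so did the last 3. The WT 2c embryos were shallow: 3 counts over the whole group would have been 1.81 CPM, above the pooled level of WT 8c embryos (1.24) and close to that of matPlag1KO 8c embryos (1.99).

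The genotypes were compared first in oocytes, a comparison that did not choose Lyrm7. The log2 fold change of matPlag1KO over WT was 0.81 ± 0.38 (SE), with an adjusted p of 0.431 in edgeR's quasi-likelihood test. Against this, 0.781% of all tested genes were called at MII. When the well entered the fit as a replicate block, with the pool as a term, the log2 fold change of Lyrm7 was 0.91 and the adjusted p 0.0141, while 792 of 12978 genes were then called in place of 129 of 16511. Over the alternatives run, the adjusted p of Lyrm7 at MII ranged from 0.0141 to 0.987.
The difference was unequal between the pools. In libA the log2 fold change of Lyrm7 was 0.18, and in libB it was 1.58 with an adjusted p of 0.15. The WT oocytes of libB split by well: B1 to B4 held 2, 0, 0 and 0 counts of Lyrm7, and B5 to B8 held 15, 12, 9 and 10. All 8 WT oocytes of libA held 6 to 61 counts. The libB libraries of wells B1 to B4 held 236068 to 591662 gene counts, and those of B5 to B8 held 222357 to 485111. Plag1 was counted in all of B1 to B4, from 6 to 68 times. The libraries of B1 to B4 also held 0 counts of C920025E04Rik. This gene was counted 3 to 19 times in wells B5 to B8, 11 to 112 times in the WT oocytes of libA, and 0 times in every matPlag1KO oocyte. C920025E04Rik is named here after its values were seen. The cause of the split was not tested. Without these 4 libraries, which were singled out for their low Lyrm7 counts so that the difference had to shrink, the log2 fold change of Lyrm7 at MII was 0.43, with an adjusted p of 0.846.
At 8c the log2 fold change of Lyrm7 was 0.54 ± 0.70 (SE), with an adjusted p of 0.802 in edgeR and an interval from -0.83 to 1.92. With 19 counts in all, that interval leaves room for a change in either direction.

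Neighbouring genes of Lyrm7 were read beside it. Cdc42se2, whose start lies 72888 bases away on the same strand of chromosome 11, was higher at 2c in matPlag1KO by a log2 fold change of 1.13 ± 0.30 (SE, adjusted p = 0.0166). Its call was lost on each pool alone (adjusted p = 0.508 and 0.126). Hint1, which starts 5847 bases away on the opposite strand, had a log2 fold change of -0.51 with an adjusted p of 0.628. The row named Lyrm7os held no count in any of the 90 libraries.
The 5 genes whose log2(CPM + 1) values were most like those of Lyrm7 over the 78 kept libraries, among 8611 genes whose group mean reached 20 CPM somewhere, were Npas3 (r = 0.77), Methig1 (r = 0.70), Grm4 (r = 0.70), Nos1ap (r = 0.70) and Gm2560 (r = 0.70). These are descriptions over libraries that share pools and stages, and the median r of all genes compared was 0.01. They were chosen over libraries that include the 2c groups, so their 2c levels follow in part from the choice. The mean of Nos1ap was 50.1 CPM in WT and 30.8 in mutant oocytes, dropped to 0.512 in WT 2c embryos against 14.8 in those of mutant mothers, and was at most 0.347 at 8c. Gm2560 had its highest mean in matPlag1KO 2c embryos, at 37.7 CPM, beside 3.92 and 5.27 CPM in WT and matPlag1KO oocytes. No other member came near: r with Lyrm7 ran from -0.57 for Lyrm1 to 0.41 for Sdhaf1.
Oocyte transcripts as a group were also read at 2c. The summed level of 7 oocyte markers ran from 1872 to 7540 CPM in WT 2c embryos and from 3092 to 10507 in those labelled matPlag1KO, with medians of 3921 and 5984, and 1 of the 7, Bmp15, was called higher (log2 fold change 1.83), beside 4.92% of all genes called. Of the 6 others none was called, with log2 fold changes from -0.94 for Zp3 to 0.49 for Mos. The same sum already differed in oocytes, with medians of 6223 CPM in WT and 14600 in matPlag1KO, where 0 of the 7 were called in edgeR and 2 passed at an unadjusted p under 0.05. Summed levels of stage markers differed at 2c too. For 7 markers of the 2c stage the median was 242 CPM in WT and 697 in matPlag1KO (Tdpoz4 called higher). For 8 markers of the 8c stage it was 1715 and 807, but most of that list did not follow its sum. Dppa5a was called lower (log2 fold change -1.72), and Tfap2c was lower without a call (-1.15). Krt8 (3.08), Cdx2 (1.58), Pou5f1 (1.00), Krt18 (0.26), Nanog (0.26) and Atp1b1 (0.13) were higher, none of them called. At 8c Krt8, Cdx2 and Krt18 of the latter list were called lower in matPlag1KO. The part of embryo stage and of retained oocyte RNA in the Lyrm7 level was not tested.

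None of the other members was called between the genotypes at any stage. In edgeR 0 of 7 members passed at MII, 0 of 6 members other than Lyrm7 at 2c, and 0 of 7 at 8c. Of all genes, 0.781%, 4.92% and 1.74% were called at these stages, so 0 calls among so few genes is close to the background. At an unadjusted p under 0.05 there were 2 at MII (Lyrm7 and Lyrm9), 1 at 2c (Sdhaf1) and 1 at 8c (Lyrm5), beside 1690, 3380 and 2363 of 16511 genes, and DESeq2 called none. The difference between stages in the genotype effect was tested too. No member other than Lyrm7 passed for 2c against MII (lowest adjusted p = 0.417, with 3.31% of genes called) or for 2c against 8c (lowest adjusted p = 0.225, with 2.3% called).
The intervals leave room for sizeable differences at 2c. They ran from -1.72 to 0.06 on the log2 scale for Lyrm1, from -0.29 to 2.46 for Lyrm2, from -0.04 to 3.07 for Lyrm4 and from -1.77 to 2.33 for Lyrm9. For the sparser Lyrm5 and Sdhaf1 the fitted intervals, from -3.38 to 0.69 and from 0.04 to 4.08, depend on the prior count. The interval of Lyrm7 at the same stage, 4.91 to 8.02, is given for its size alone. It is no test, because the gene was picked for this difference.
Lyrm1 was counted in all 22 kept 2c embryos, 86 counts in WT and 53 in matPlag1KO. WT levels spanned 21.2 to 68.3 CPM around a median of 37.5, and matPlag1KO levels spanned 4.61 to 80.3 around 22.7, so the groups overlapped.
Sdhaf1 gave 1 count in 11 WT and 7 counts in 11 matPlag1KO 2c embryos. The ratio of the pooled levels, without TMM, was 6.20 with a counting interval from 0.80 to 279.
Lyrm5 at 8c gave 23 counts in WT and 40 in matPlag1KO. The log2 fold change was 1.43 ± 0.60 (SE, adjusted p = 0.226), and the levels overlapped, from 0 to 10.5 CPM in WT and from 0 to 36.1 in matPlag1KO.

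**Figure D2:**
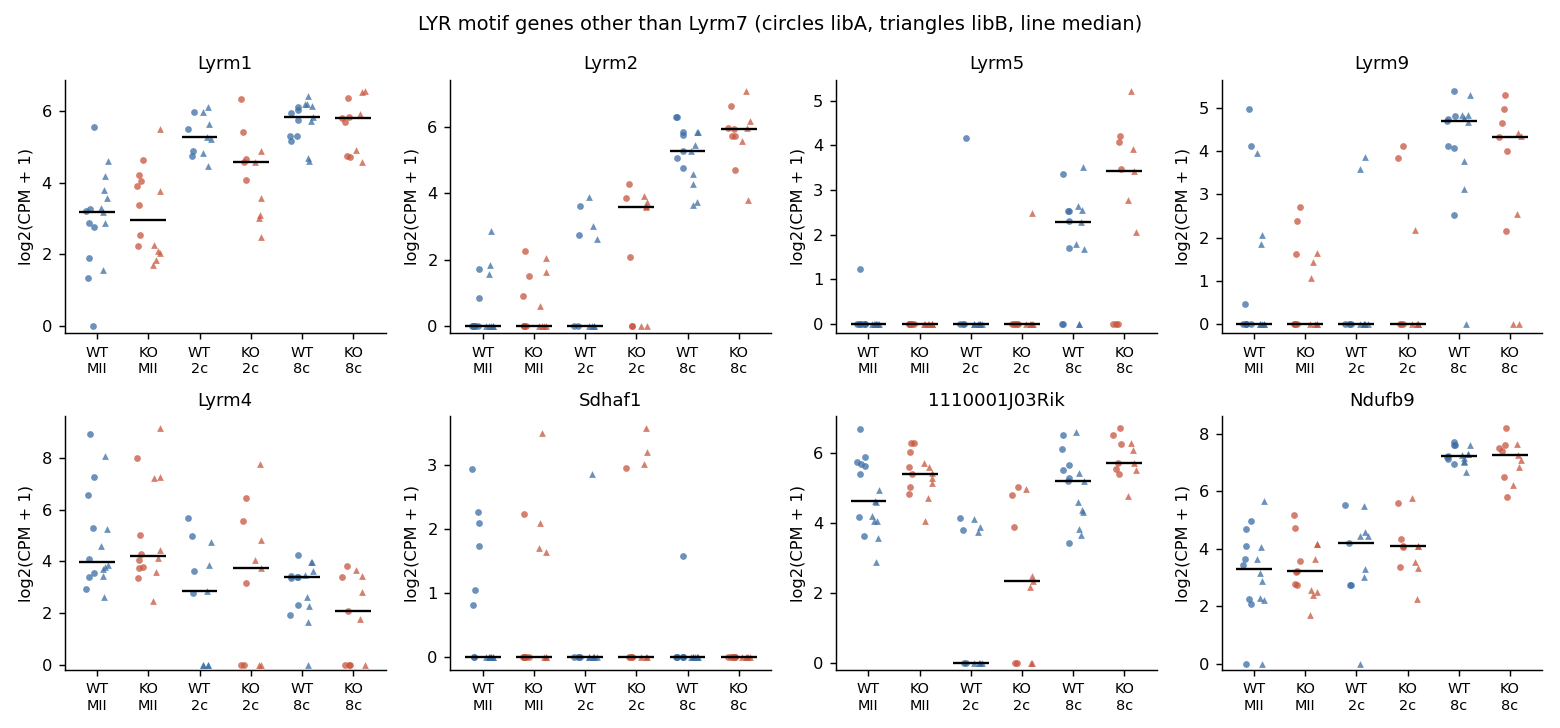
Levels of the other 6 members and of the relatives 1110001J03Rik and Ndufb9 in each kept library on a log2(CPM + 1) scale (vertical axes), by group (horizontal axes), with circles for libA, triangles for libB and a line at the median. WT and matPlag1KO points overlap at every stage, and Lyrm1, Lyrm2, Lyrm5 and Lyrm9 sit higher at 8c than in oocytes while Lyrm4 and Sdhaf1 sit lower.

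Lyrm4 varied widely from oocyte to oocyte within each genotype. Its level ran from 5.20 to 484 CPM in WT oocytes, with a median of 14.8, and from 4.46 to 567 in matPlag1KO oocytes, with a median of 17.4. The high values sat in the same wells of both pools although these held opposite genotypes. Well A1 gave 454 counts in a WT oocyte in libA and 268 in a matPlag1KO oocyte in libB, well A5 gave 251 and 270, and well B1 gave 289 in a matPlag1KO and 169 in a WT oocyte. The 10 libraries of wells A1, A2, A5, B1 and B2 held 1879 of the 2032 Lyrm4 counts in oocytes, and the other 20 libraries held 2 to 13 counts each.
Over the 14 wells with both oocytes kept, r between the pools was 0.95 for Lyrm4 and -0.32 for Lyrm7. The median r was 0.52 over 7142 genes with a mean of at least 10 CPM at MII. Of these genes 99.5% had a lower r than Lyrm4 and 1.05% a lower r than Lyrm7. The levels were not centred by genotype, and libA held WT in some wells and matPlag1KO in others. A genotype difference would therefore itself lower r. What the wells share is not stated in the labels, and its part in these levels was not tested.
At 2c, wells D7 and D8 held 95 of the 101 Lyrm4 counts of the matPlag1KO group in 4 of its 11 libraries, with 6 to 58 counts each. Unlike the oocyte wells, these wells held the same genotype in both pools, so well and genotype cannot be told apart. With these wells the fitted log2 fold change at 2c was 1.52 and without them -1.54 (adjusted p = 0.258 and 0.471), where the drop follows from leaving out the highest libraries of 1 group.
Fars2, a mitochondrial phenylalanyl-tRNA synthetase gene that starts 286 bases from Lyrm4 on the opposite strand had means of 118 and 95.2 CPM in WT and matPlag1KO oocytes. At 2c it was higher in matPlag1KO by a log2 fold change of 1.64 ± 0.38 (SE, adjusted p = 0.00494), with means of 19.6 and 61.1 CPM. The adjusted p was 0.606 in libA alone.

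**Figure D3:**
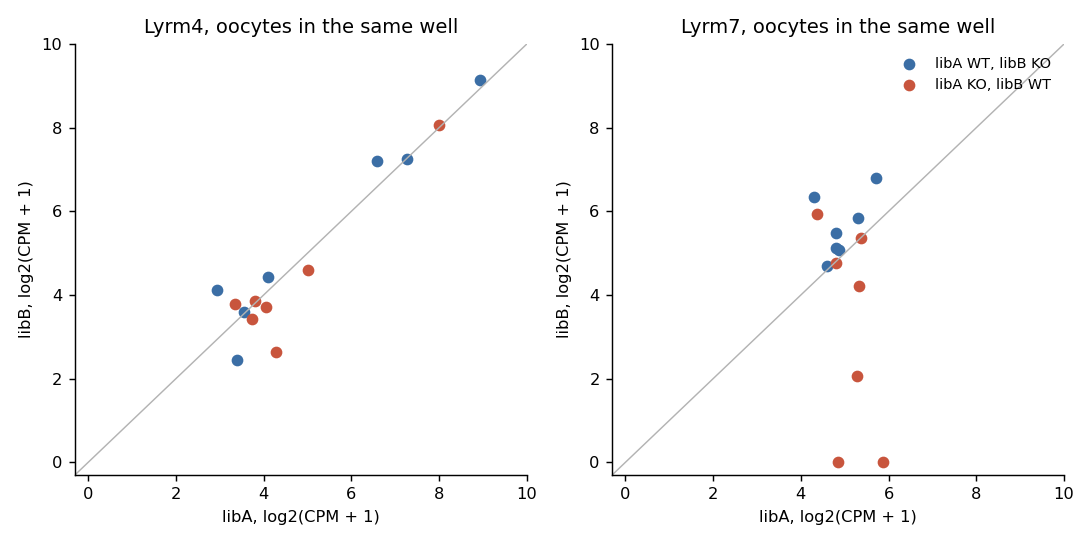
Levels of Lyrm4 (left) and Lyrm7 (right) in oocytes that took the same well in libA (horizontal axis) and libB (vertical axis), on a log2(CPM + 1) scale, with 1 point for each of 14 wells, a line of equal values, and colours for which pool held the WT oocyte. Lyrm4 follows the line (r = 0.95), and 3 wells with a WT oocyte in libB lie near or at 0 for Lyrm7.

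From the oocyte to the 8c embryo the family split. Lyrm1, Lyrm2, Lyrm5 and Lyrm9 rose and Lyrm4, Lyrm7 and Sdhaf1 fell, in both genotypes, when libraries were scaled to the spike-in RNA added to each cell or embryo. All 7 members were called in WT, where 70.7% of all genes were called, and all 7 in matPlag1KO, where 69.3% were. Changes at this interval were thus the rule among genes. Over all tested genes, 27.1% were higher and 43.6% lower at 8c in WT, with a median log2 fold change of -0.67. In matPlag1KO these were 24.1%, 45.2% and -0.95. With TMM on gene counts in place of spike-ins, 5949 genes were higher and 5996 lower in WT and 5708 and 5617 in matPlag1KO, and each member kept its direction.
Lyrm7 fell by 4.47 ± 0.57 (SE) on the log2 scale in WT (adjusted p = 4.14e-11) and by 5.04 ± 0.66 in matPlag1KO (adjusted p = 1.41e-10). All 14 matPlag1KO oocytes were above all 11 matPlag1KO 8c embryos, with lowest and highest levels of 19.5 and 11.7 CPM. In WT the ranges overlapped through the 4 oocytes with 0 to 2 counts.
Lyrm2 had the largest rise of the members in WT, 4.55 ± 0.56 on the log2 scale (adjusted p = 1.57e-11), and rose by 4.91 ± 0.60 in matPlag1KO (adjusted p = 1.38e-11). It was counted in 5 of 16 WT oocytes, 8 times in all, and in 15 of 15 WT 8c embryos, where it ran from 11.5 to 77.5 CPM with a median of 37.5. In matPlag1KO 8c embryos it ran from 13.0 to 132, with a median of 60.2. Most of the rise came after the 2c stage, with a log2 fold change from 2c to 8c of 4.16 in WT and 3.72 in matPlag1KO (adjusted p = 6.42e-08 and 2.84e-07).
Lyrm5 gave 1 count in 16 WT and 0 in 14 matPlag1KO oocytes. At 8c it was counted in 11 of 15 WT and 8 of 11 matPlag1KO embryos. Without spike-in scaling, the pooled level was 28.6 times higher at 8c than at MII in WT, with a counting interval from 4.64 to 1176. With the oocytes set at a floor of 3 counts over the group, the ratio was 9.52 in WT and 32.9 in matPlag1KO. The counting interval in matPlag1KO began at 25.5. At 2c Lyrm5 gave 3 counts in WT and 1 in matPlag1KO. Without spike-in scaling, the pooled WT level at 8c was 1.57 times that at 2c, with a counting interval from 0.47 to 8.17 that includes no change. On the spike-in scale this WT step was called, with a log2 fold change of 1.76 ± 0.74 (SE, adjusted p = 0.0427 in edgeR).
Lyrm9 was counted in 6 oocytes of each genotype, and in 14 of 15 WT and 9 of 11 matPlag1KO 8c embryos. Its log2 fold change was 2.32 ± 0.62 in WT and 2.48 ± 0.71 in matPlag1KO (adjusted p = 0.000641 and 0.00155).
Lyrm1 was the only riser counted in nearly every oocyte (15 of 16 WT and 14 of 14 matPlag1KO). Its log2 fold change was 1.93 ± 0.39 in WT (adjusted p = 1.03e-05) and 1.43 ± 0.43 in matPlag1KO (adjusted p = 0.00222). In matPlag1KO it was not called in libA alone (0.76, adjusted p = 0.285).
Sdhaf1, the complex II factor, was sparse throughout. In oocytes it gave 13 counts in WT, all in libA, and 22 in matPlag1KO, and at 8c it gave 1 and 0. Without spike-in scaling, its pooled level was 10.5 times higher in WT oocytes than in WT 8c embryos (counting interval 1.57 to 445). With the 8c embryos set at a floor of 3 counts over the group, the ratio was 3.49 in WT and 2.97 in matPlag1KO. The counting interval in matPlag1KO began at 2.22. In WT, libB alone could show no fall, since its oocytes held no count, and in libA alone the matPlag1KO change was not called (adjusted p = 0.158).
Lyrm4 fell by 4.21 ± 0.75 in WT (adjusted p = 5.97e-07) and by 5.05 ± 0.92 in matPlag1KO (adjusted p = 1.18e-06). Much of that size rested on the oocytes of the 5 wells named above, which were singled out for their Lyrm4 counts. Without them the WT change was -1.07, with an adjusted p of 0.0948, and the matPlag1KO change was -2.20, with an adjusted p of 0.00387.

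The steps within this interval were less even. From MII to 2c the spike-in scale called Lyrm4 and Sdhaf1 lower in WT and Lyrm4 lower in matPlag1KO, of 6 members other than Lyrm7, beside 65.4% and 63.8% of all genes called, with 51.3% and 50.3% of all genes lower. The medians of all genes were -1.46 and -1.42. On the TMM scale those medians were -0.03 and 0.14, and Lyrm1 was then called higher in both genotypes (2.01 and 1.07). The Lyrm4 call was lost in both genotypes without the 5 wells (adjusted p = 0.0841 and 0.984), and in matPlag1KO also with TMM (adjusted p = 0.117), while Lyrm1 in WT was called higher without the 5 wells (1.28, adjusted p = 0.0137). From 2c to 8c, Lyrm1, Lyrm2, Lyrm5 and Lyrm9 rose in both genotypes, beside 48.1% and 48.6% of all genes called and 31.9% and 29.1% higher, although on the TMM scale Lyrm1 and Lyrm5 were not called in WT (adjusted p = 0.467 and 0.223). In matPlag1KO, Lyrm4 and Sdhaf1 also fell in this step, and without wells D7 and D8 the Lyrm4 change was 0.98 (adjusted p = 0.501).

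The relatives outside the chosen names behaved differently from Lyrm7. Ndufb9 and Ndufa6, the complex I subunits, rose from MII to 8c: by log2 fold changes of 3.06 and 1.40 in WT (adjusted p = 2.5e-10 and 0.00164) and of 2.68 and 1.01 in matPlag1KO (adjusted p = 1.21e-07 and 0.0377). The Ndufa6 call was lost in libA alone in both genotypes (adjusted p = 0.178 and 0.794), and in matPlag1KO also without the oocytes of the 5 wells (adjusted p = 0.169). Sdhaf3 and 1110001J03Rik were not called over that interval.
1110001J03Rik, the Fmc1 gene, whose product helps to assemble ATP synthase, dipped in between. In WT its median went from 23.7 CPM in oocytes to 0 at 2c and 35.8 at 8c, and in matPlag1KO from 41.8 to 4.08 and 52.0. On the spike-in scale it fell by 3.79 ± 0.57 from MII to 2c in WT and by 4.05 ± 0.57 in matPlag1KO (adjusted p = 1.69e-08 and 2.52e-09). From 2c to 8c it rose by log2 fold changes of 3.34 and 3.61 (adjusted p = 5.54e-07 and 1.26e-07).

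**Figure D4:**
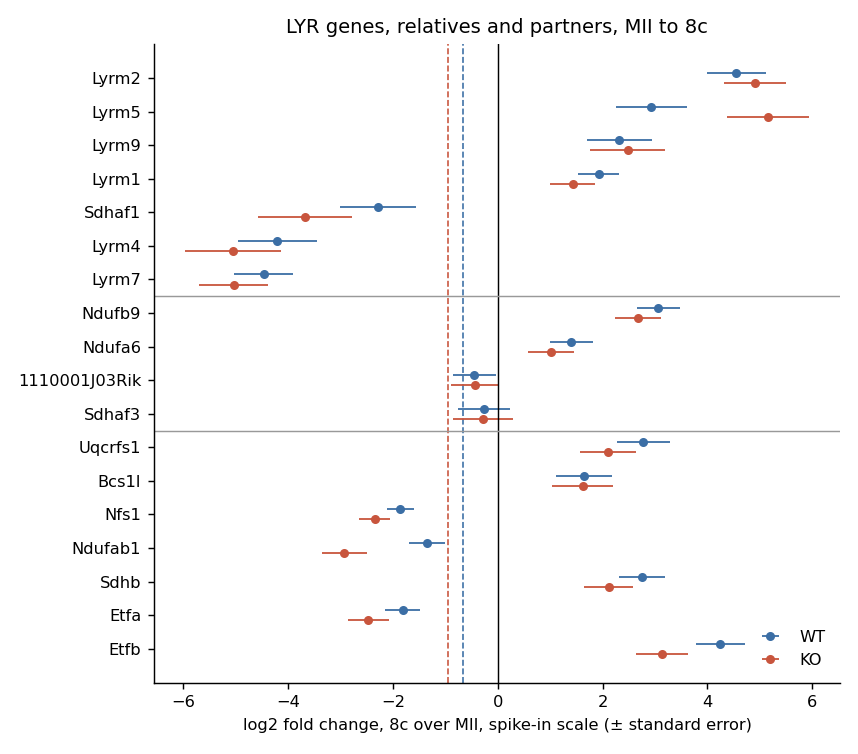
Log2 fold changes from MII to 8c on the spike-in scale (horizontal axis, ± SE) in WT and matPlag1KO for the 7 members (top), 4 relatives (middle) and 7 partner genes (bottom), with dashed lines at the median of all tested genes in each genotype. Lyrm7 (-4.47 and -5.04) lies opposite to its partners Uqcrfs1 (2.78 and 2.10) and Bcs1l (1.64 and 1.62), and the fitted values of Lyrm5 and Sdhaf1 in matPlag1KO rest on a group with 0 counts and depend on the prior count.

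The partners of the members were read from fixed lists, whose counts stand beside 27.1% of all genes higher and 43.6% lower in WT and 24.1% and 45.2% in matPlag1KO. In the complex III list, 12 of 14 tested genes rose from MII to 8c in WT, and in matPlag1KO 12 rose and 1 fell, with medians of 3.09 and 2.60. Uqcrfs1, the Rieske protein that LYRM7 holds, rose by log2 fold changes of 2.78 ± 0.51 in WT and 2.10 ± 0.53 in matPlag1KO (adjusted p = 1.09e-06 and 0.000367). Bcs1l, which acts after LYRM7, rose by 1.64 and 1.62 (adjusted p = 0.00494 and 0.0109). In libA alone Bcs1l was not called in either genotype (adjusted p = 0.241 and 0.217), nor Uqcrfs1 in matPlag1KO (adjusted p = 0.0915). Lyrm7 thus moved against its own partners in both genotypes over this interval.
Nfs1, the partner of LYRM4, fell as Lyrm4 did, by 1.86 ± 0.25 in WT and 2.35 ± 0.29 in matPlag1KO (adjusted p = 3.67e-10 and 3.06e-11). In the iron-sulfur assembly list, WT embryos showed a rise of 7 and a fall of 6 of the 19 tested genes, against 4 and 8 in matPlag1KO, shares near those of all genes. Ndufab1, the acyl carrier protein, fell by 1.35 ± 0.35 and 2.93 ± 0.43 (adjusted p = 0.000378 and 6.05e-09), and was not called in WT in libB alone (-0.43, adjusted p = 0.465). In its list of 6 tested genes for mitochondrial fatty acid synthesis, 3 fell in each genotype and 1 rose in WT.
Sdhb, which SDHAF1 serves, rose by log2 fold changes of 2.76 and 2.12 (adjusted p = 2.89e-08 and 4.21e-05) while 4 of the 6 complex II genes, Sdha, Sdhc, Sdhd and Sdhaf4, fell in both genotypes. In matPlag1KO the Sdhb call was lost in libA alone (adjusted p = 0.104). The subunits of the electron transfer flavoprotein went apart: Etfb rose by 4.25 and 3.14 and Etfa fell by 1.82 and 2.47 (adjusted p = 3.18e-13, 4.79e-08, 9.19e-07 and 2.95e-08). In the list for the N module of complex I, 8 of 9 genes rose in WT and 7 in matPlag1KO, and of 3 ATP synthase assembly genes Atpaf2 and Tmem70 rose in both.
Between the genotypes at 2c, the partner genes called were Uqcc3, Uqcrq and Ndufa7, beside 4.92% of all genes called. Uqcc3 and Uqcrq of complex III were lower in matPlag1KO, by log2 fold changes of -1.24 ± 0.36 and -1.51 ± 0.41 (adjusted p = 0.0294 and 0.0202), and so was Ndufa7 of the N module (-1.64 ± 0.44, adjusted p = 0.0194). None of the 3 was called with spike-in scaling (adjusted p = 0.113, 0.0936 and 0.117), in libA alone (0.567, 0.534 and 0.489) or without wells D7 and D8 (0.0702, 0.0688 and 0.0612). Uqcrfs1, Bcs1l and Ndufab1 were not among the called genes.

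Depth and identity were read once for all of these values. Kept oocytes held 222357 to 2502421 gene counts, 2c embryos 92475 to 256529 and 8c embryos 214053 to 696870. Plag1 was counted in 16 of 16 WT oocytes, 1 to 97 times, and in 3 of 14 matPlag1KO oocytes, at most 2 times. In 2c embryos it was counted in 1 of 11 WT and 9 of 11 matPlag1KO libraries, which carry a WT paternal allele, so Plag1 does not check the genotype labels after fertilisation. Of 7 oocyte markers all 7 fell from MII to 8c in both genotypes. Of 10 cumulus cell markers 6 were at 0 in all WT and 5 in all matPlag1KO oocytes (Ptx3, Tnfaip6, Ptgs2 and Col1a2 in both), and the summed level of the list was at most 28.7 CPM in WT oocytes and 25.7 in matPlag1KO oocytes. Of 7 markers of the 2c stage, Tcstv1 and Tcstv3 were at 0 in all 2c embryos and the others were counted.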

How the data were processed

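Per the labels and the methods, single oocytes and embryos were sequenced from transcript 5′ ends with molecular identifiers and spike-in RNA, reads were aligned to mm9, and the authors deposited raw counts per gene, made with HOMER, with 92 spike-in rows and no normalization. Whether counting used strand is not given in the sources used here. The members and gene lists were chosen with earlier results of these data known.

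Libraries with a median under 1 CPM (12 of 90) were left out, and a gene was tested where 5 or more kept libraries reached 1 CPM. The 6 groups were fitted together with edgeR 4.0.16 (quasi-likelihood test, R 4.3.3) and calls were made under 0.05 after Benjamini-Hochberg adjustment, with TMM factors for genotypes and spike-in totals as library sizes for stages. Standard errors were taken from the fold change and its F statistic, and 95% intervals are approximate. Pooled levels and their ratios are plain counts over total gene counts, without TMM or spike-in scaling. Counting intervals given with ratios are exact conditional intervals, which like the floor of 3 counts cover counting error only. That floor is a set value and not a confidence limit. A pseudocount of 1 CPM was added before logarithms. The steps were tested on simulated data.

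Named genes were the members, the listed genes, Plag1, the 5 genes most correlated with Lyrm7 and each member's nearest tested genes. Alternatives covered scaling, filters, left-out libraries, the pool (libA or libB) as a term, each pool alone, the groups fitted, the well and DESeq2 1.42.0. Fits without certain wells were added after the data were seen.

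Oocytes in the same well of both pools were checked for pairing. Correlations of their deviations from the mean of their group in their pool were over 0.1 in 14 of 14 wells (lowest 0.148), and the fit with wells as a replicate block is therefore given beside results it changes. With deviations from the group means alone, 12 of 14 were over 0.1 (lowest -0.06).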

Additional observations from a re-analysis of the deposited data

Results flagged for a closer look

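The 2c libraries left out for low complexity were in none of the main comparisons and entered only the alternative with no library left out. Lyrm7 was counted in those labelled matPlag1KO. The 3 left-out 2c libraries labelled matPlag1KO gave 8, 4 and 3 counts of Lyrm7, 15 in all. The 3 left-out WT 2c libraries gave 0 of 103036 gene counts, with a 95% counting interval that reached 35.8 CPM. Pooled over the left-out matPlag1KO libraries the level was 83.2 CPM, with a 95% counting interval from 46.6 to 137. The difference was not tested.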

How the results depend on the processing

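Of 789 values of a gene under an alternative, 694 kept direction and side of the threshold. For Lyrm7 at 2c, given as a description, the log2 difference was 4.89 in libA alone and 8.05 in libB alone. With the well as a replicate block 1 member, Lyrm7, was called at MII. That block changed no other call of a member at MII, and none was run at 2c, where only 2 shared wells held both genotypes, each with WT in libA and matPlag1KO in libB. Among 6 members other than Lyrm7, calls from MII to 2c numbered 4 in WT and 2 in matPlag1KO with TMM and 1 in WT in libB alone. Calls from 2c to 8c numbered 2 in WT with TMM, 2 in WT in libA alone and 2 in matPlag1KO in libA alone. The shares of all genes called in these alternative stage fits are not given here, so these counts cannot be read against a background.

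Signs changed in values that were mostly not called. At MII, libA alone gave -0.94 for Lyrm4 and -1.81 for Sdhaf1, libB alone gave -0.24 for Lyrm1 and -1.004 for Lyrm2, and Lyrm4 was at -0.14 without the 5 wells. Lyrm2, near 0 at MII, was at -0.0056 with median-ratio factors, -0.0341 with the groups of the stage alone, -0.0224 with no library left out, -0.10 with the block, -0.088 with DESeq2 and -0.09 without the 5 wells. At 2c, libB alone gave 1.78 for Lyrm5, -2.01 for Lyrm9 and -0.15 for 1110001J03Rik. Lyrm9 was at -0.0268 with no library left out and -0.13 without wells D7 and D8, where Lyrm4 was at -1.54. At 8c, Lyrm7 was at -0.21 in libA alone, Sdhaf1 at 0.21 with DESeq2, and Lyrm1, near 0, at 0.0581 with spike-in totals, 0.064 with median-ratio factors, 0.0785 in libB alone, 0.0281 with the groups of the stage alone, 0.007 with no gene filter and 0.0668 with DESeq2.

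Between stages, TMM gave 1.07 for Lyrm1, 0.59 for Lyrm7, 1.15 for Lyrm9 and 0.79 for Sdhaf1 from MII to 2c in matPlag1KO, -0.68 for Lyrm4 from 2c to 8c in WT, and 0.26 in WT and 0.47 in matPlag1KO for 1110001J03Rik from MII to 8c. libB alone gave -0.22 for Lyrm2 and 1.19 for Sdhaf1 from MII to 2c in WT, and 0.84 in WT and 0.0319 in matPlag1KO for 1110001J03Rik from MII to 8c. From 2c to 8c, libA alone gave -0.49 for Lyrm4 and 1.01 for Sdhaf1 in WT, and Lyrm4 in matPlag1KO was at 0.98 without wells D7 and D8. The causes were not tested.

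Calls over all genes also moved. At MII 129 became 46 with the groups of the stage alone, 82 with DESeq2, 463 in libB alone and 792 with the block. At 2c 812 became 285 with spike-in totals, 502 in libB alone and 0 in libA alone (edgeR, with 1339 at an unadjusted p under 0.05), where 4 WT and 5 matPlag1KO libraries were kept. The split at 2c was 379 higher and 433 lower, against 191 and 94 with spike-in totals and 721 and 273 with median-ratio factors, as the median of all genes went from 0.12 to 0.28 and 0.31. With spike-in totals it went from 51 and 78 to 97 and 40 at MII, and from 200 and 87 to 91 and 15 at 8c. At 8c 287 became 106 with spike-in totals, 46 in libB alone and 6 in libA alone. Depth limited the 2c values of Lyrm5, Lyrm9 and Sdhaf1, which were at 0 in most 2c embryos of both genotypes.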
